A study of Mus musculus with 8 samples.

Results

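Transcripts of the fibroblast growth factor (FGF) pathway were examined in tissue of the posterior second heart field (pSHF) from mouse embryos: the FGF ligands, their receptors, the intracellular inhibitors Spry, Spred and Dusp6, and the ETS factors Etv1, Etv4 and Etv5. Members were chosen by name alone, as every probe whose gene name is an Fgf, an Fgfr, Fgfrl1, Spry1 to Spry4, Spred1 to Spred3, Dusp6, Etv1, Etv4 or Etv5. This gave 65 of the array's 41174 probes, for 37 genes: 21 ligand genes, 5 receptor genes, 8 inhibitor genes and 3 ETS factor genes. Of these, 28 probes for 20 genes were tested, because the scanner software marked them as well above background on every array of one group or the other. The mark was met on all 8 arrays by 21 of them, and the others were tested through the wild-type group alone. Probes of that kind are more likely to be lower than higher in Tbx5-/+. Over the whole array 20031 probes were tested.

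The study asked which pSHF transcripts depend on Tbx5, a T-box factor needed in full dose for atrial septation. RNA came from embryos at E9.5, 4 samples of genotype Tbx5-/+ and 4 wild-type, each on its own one-colour Agilent array. Tbx5-/+ mice were kept on a mixed background, and mothers had been given gonadotropins before mating, in both groups. The tissue was cut by hand from the region between the outflow and inflow tracts after the neural tube had been removed through the foregut, so adjoining cell types can be present. Samples carry embryo numbers 1, 5, 6 and 7 in both groups, and how many embryos went into a sample was not given in the sources used here. p-values measure the spread between these samples, which may be partly technical.

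Secreted FGFs bind receptor tyrosine kinases together with heparan sulfate and act mainly through Ras and ERK. Spry, Spred and Dusp6 restrain that cascade and are themselves induced by it, and Etv4 and Etv5 are ETS factors widely used as readouts of FGF activity. In the second heart field, Fgf8 and Fgf10 are the ligands best known for holding progenitors in a proliferative state. Fgf11 to Fgf14 are relatives that stay inside the cell and are not classical receptor ligands.

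A pair of probes for Fgfr1 and one of the Fgf8 probes lie in coding sequence, and they are shown so that the agreement and disagreement between probes of a gene can be followed. All are 60 bases long with positions on mm9. The Fgfr1 pair covers the end of the kinase domain, with the 39 bases they share in capitals.
Fgfr1 A_51_P109469, chr8:26684042-26684101, plus strand: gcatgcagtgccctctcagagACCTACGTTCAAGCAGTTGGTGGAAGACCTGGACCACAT
Fgfr1 A_52_P668810, chr8:26684063-26684122, plus strand: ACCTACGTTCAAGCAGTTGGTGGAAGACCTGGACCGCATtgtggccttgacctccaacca
Fgf8 A_52_P296244, chr19:45816101-45816160, minus strand: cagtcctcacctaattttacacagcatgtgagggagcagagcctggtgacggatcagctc
The 2 overlapping Fgfr1 probes differ at 1 base in the shared stretch, written G36A when positions are counted from the first base of A_52_P668810 and its base is given first. Since they overlap, they are not independent readings of Fgfr1.

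Tbx5 itself was checked first. Its brighter probe, A_52_P523712, stood at 9.01, 9.73, 9.16 and 8.62 in Tbx5-/+ 1, 5, 6 and 7 and at 11.47, 11.56, 10.42 and 11.54 in wild-type 1, 5, 6 and 7, in log2 units after variance stabilization (VSN). No Tbx5-/+ array reached a wild-type array, and the difference was -2.12 ± 0.32 (SE, n = 4 per group, limma adjusted p = 0.0920; exact permutation p = 0.0286, two-sided, the smallest that 70 assignments allow). A dimmer Tbx5 probe, A_51_P469338, overlapped between the groups with a difference of -0.15 ± 0.32. All 14 genes of a pSHF marker list were tested, and the mean level of the list, which includes Tbx5, ran from 10.3 to 11.1 in Tbx5-/+ and from 11.1 to 11.8 in wild-type. The groups did not overlap, but Tbx5-/+ 5 at 11.10 lay just under wild-type 6 at 11.14. Tbx5 itself read 9.73 and 10.42 on these arrays, and the separation rests on it. The mean of 10 endothelial markers was lower in every Tbx5-/+ array, 10.1 to 10.8 against 10.9 to 11.2, whereas foregut endoderm, cardiomyocyte, anterior second heart field and neural crest lists overlapped. Sox1 of the neural tube list and Myf5 and Mesp2 of the somite list were well above background on no array. However, 6 genes of each list were tested, so these tissues cannot be taken as absent. The neural tube mean ran from 8.4 to 9.2 in Tbx5-/+ and 7.5 to 10.3 in wild-type, and the somite mean from 9.9 to 10.8 and 9.4 to 11.1. The part of these shifts in the results below was not tested, and in dissected tissue fewer cells of a type cannot be told apart from less RNA per cell.

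Arrays also differed in how strongly signal fell off away from the 3' end of transcripts. Over 2723 genes with well separated probes, the median of the 3' probe minus the 5' probe (the 3' to 5' gap, log2) was 1.63, 1.98, 2.11 and 2.05 in Tbx5-/+ 1, 5, 6 and 7 and 1.59, 1.69, 1.78 and 1.66 in wild-type. Tbx5-/+ 5, 6 and 7 thus had wider gaps than all other arrays, and Tbx5-/+ 1 lay among the wild-type arrays. Gap and genotype are therefore largely confounded. A fit with the gap as a covariate cannot tell them apart, and its estimates lean on Tbx5-/+ 1. Over all 20031 probes the median difference was -0.19 on the VSN scale, 0.13 after centring each array and 0.10 after scaling to the 75th percentile, so differences below are also given relative to this median.

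No FGF probe passed an adjusted p of 0.05 in the unpaired limma comparison (0 of 28, beside 0% of all probes tested). At an unadjusted p under 0.05 there were 6 lower and 2 higher, or 21.4% and 7.14% of the member probes, beside 18.5% and 3.37% of all probes. Samples with the same embryo number deviated together for numbers 1, 5 and 6, and only weakly for number 7. With the number as a block limma called 6 of the 28 probes. Higher in Tbx5-/+ were 2 of them, Fgf8 A_51_P101975 and Spry2 A_52_P368532, where 0.379% of all probes were called higher. Lower were 4, from Fgf18, Fgfr1 and Fgfr2, or 14.3% of the member probes beside 10.7% of all probes. The Fgfr2 probe among these was tested through wild-type alone. Of the blocked calls over the whole array 96.6% were lower, and with arrays centred, scaled to the 75th percentile or quantile normalized the blocked fit called 0 probes in either direction. SAM, the test of the study's methods, was run on the 21 member probes that passed its filter. It called 2 higher and 6 lower, against 3.21% and 27.1% of all probes it tested. Among the 6 lower was Fgfr1 A_52_P552062, which was outside the 28 and met the background mark only in wild-type, on 3 arrays. By the paper's description, that filter also favours probes that vary more across samples, and a group difference adds to this variation.

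**Figure D1:**
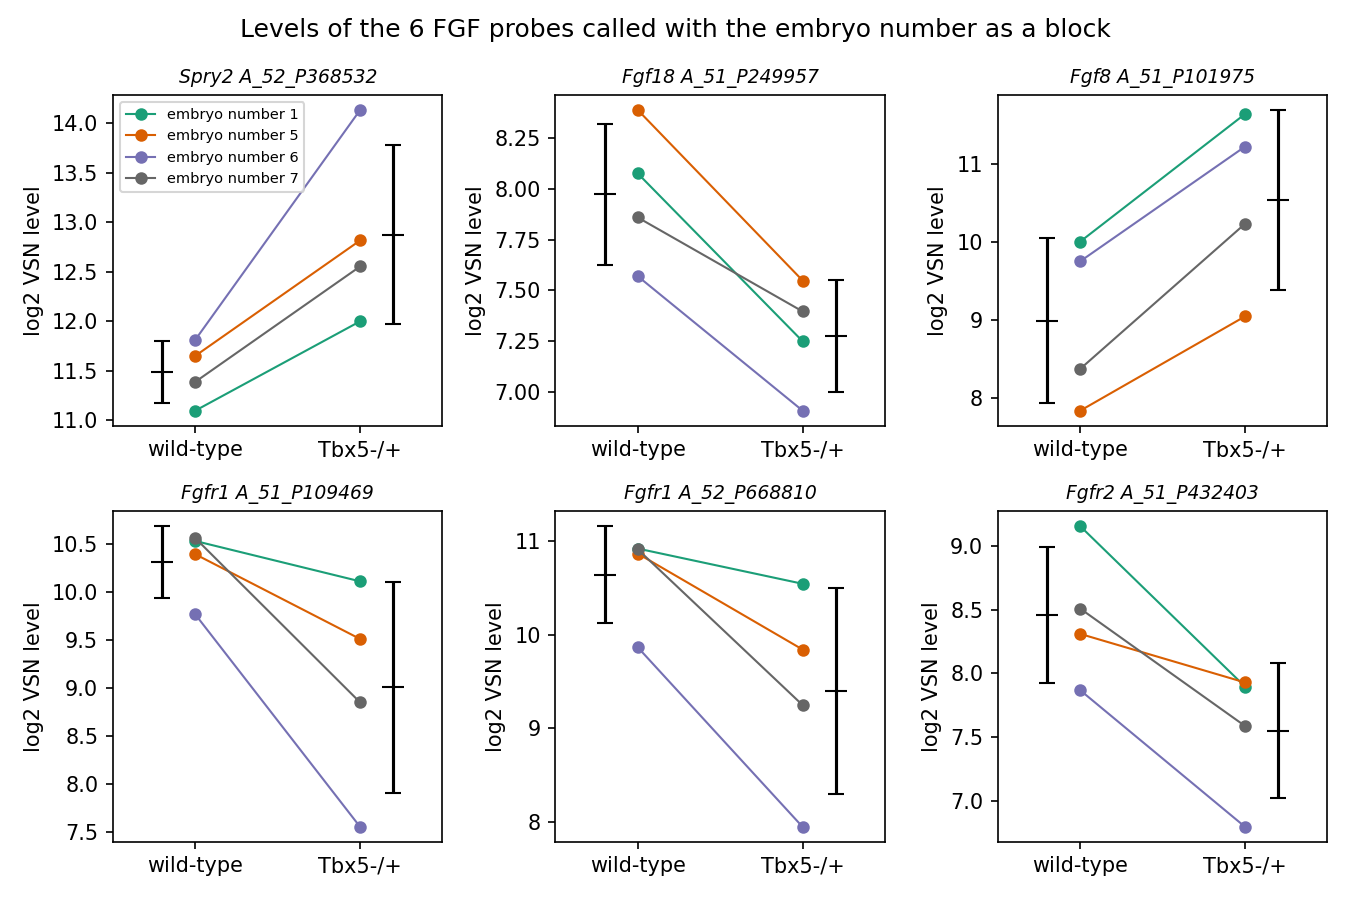
Log2 VSN level (vertical axis) of the 6 FGF probes called with embryo number as a block, by genotype. Points are arrays, lines join arrays of the same embryo number, and black bars are the mean and SD of 4 arrays. All 4 Fgf8 lines and all 4 Spry2 lines rise toward Tbx5-/+, and all lines of the other 4 probes fall.

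Among the tested ligand probes, Fgf8 had the largest difference on the VSN scale without a covariate. Fgf8 encodes a secreted ligand of the second heart field and pharyngeal region, and its probe A_51_P101975 was spotted 10 times on each array. It read 11.64, 9.05, 11.22 and 10.24 in Tbx5-/+ 1, 5, 6 and 7 and 10.01, 7.84, 9.75 and 8.38 in wild-type 1, 5, 6 and 7. The groups overlapped, since numbers 1 and 6 were high and number 5 was low in both genotypes. Within each number the Tbx5-/+ array was higher, by 1.63, 1.21, 1.47 and 1.86 for numbers 1, 5, 6 and 7.

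The mean Fgf8 difference of 1.54, a 2.91-fold higher level, had an SE of 0.63 without the block (limma adjusted p = 0.209) and of 0.18 with it (limma adjusted p = 0.0335). It was 1.73 relative to the median of all probes. The exact permutation p over the groups was 0.114, and signs within 4 pairs cannot give a two-sided exact p below 0.125. The sample titles also carry one array label for numbers 1 and 5 and another for numbers 6 and 7, and the difference was 1.42 within the first and 1.66 within the other. With the 3' to 5' gap as a covariate the difference was 2.10 (limma adjusted p = 0.288). The blocked difference kept its sign under 7 further alternatives, at 1.44 to 1.98, and passed in 1 of them (limma adjusted p from 0.00325 to 0.162).

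The coding-sequence Fgf8 probe shown above, A_52_P296244, passed the background mark on 1 array of each group and was not tested. Both of its highest readings were from number 1, at 7.31 in Tbx5-/+ and 6.72 in wild-type. Fgf3 and Fgf15, which encode other secreted ligands, were well above background on Tbx5-/+ 1 alone, at 7.49 and 8.09, and the highest reading on any other array was 6.65 for Fgf3 and 6.48 for Fgf15. Tbx5-/+ 1 also had the highest level of the anterior second heart field marker list, 11.05 against 10.41 to 10.86 on the other arrays.

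Fgf18, a secreted ligand of the Fgf8 subfamily, went the opposite way. Its probe A_51_P249957 read 7.25, 7.55, 6.91 and 7.40 in Tbx5-/+ and 8.08, 8.39, 7.57 and 7.86 in wild-type. The groups did not overlap, though the highest Tbx5-/+ value lay just under the lowest wild-type value. The difference was -0.70 ± 0.23 without the block (limma adjusted p = 0.174; exact permutation p = 0.0286) and passed with it (limma adjusted p = 0.0435). It was -0.57 with the 3' to 5' gap as a covariate (limma adjusted p = 0.425). The lack of overlap was lost after centring, percentile scaling or quantile normalization.

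Fgf10, the mesenchymal ligand that marks the second heart field, had a positive difference that did not pass. Its probe, also spotted 10 times, read 8.74, 8.08, 8.03 and 7.95 in Tbx5-/+ and 8.62, 7.78, 7.65 and 7.60 in wild-type. Each Tbx5-/+ array was above its wild-type partner, by 0.12 to 0.38, and the difference of 0.29 ± 0.28 did not pass without the block (limma adjusted p = 0.536) or with it (limma adjusted p = 0.242). Number 1 was high in both genotypes. The size depended on the setting, at 0.61 after centring, 0.63 after percentile scaling, 0.52 after quantile normalization and 0.82 with the 3' to 5' gap as a covariate (limma adjusted p = 0.226). Leaving out Tbx5-/+ 1 gave 0.11, and leaving out wild-type 1 gave 0.53.

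Fgf5 had one of the 3 widest spreads, and the spread was that of a single array. It read 8.23 in Tbx5-/+ 1 and 10.95, 11.55 and 11.52 in Tbx5-/+ 5, 6 and 7, with 10.33 to 11.25 in wild-type. The difference was -0.34 ± 0.66 with Tbx5-/+ 1 and 0.44 without it. With the gap as a covariate it was -2.14 (limma adjusted p = 0.158). Of the remaining tested ligands, Fgf9 differed by -0.42 ± 0.23, intracellular Fgf11 by 0.88 ± 0.50, and the 2 probes of intracellular Fgf13 by 0.13 ± 0.26 and 0.00 ± 0.20. None of these passed with or without the block. The 8 ligand probes had a median difference of 0.26 relative to all probes, and 5 of the 8 lay above that median. The value was 0.10 after percentile scaling and 0.11 with the gap as a covariate, where 4 lay above and 4 below.

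The other 14 ligand genes had no tested probe, and 9 of them were well above background on no array: Fgf1, Fgf2, Fgf14, Fgf16, Fgf17, Fgf20, Fgf21, Fgf22 and Fgf23. Fgf7 reached it on 2 wild-type arrays and Fgf6 on 1. Of the 37 member probes not tested, 19 passed the background mark on no array and 18 on at least 1. A dim probe gives only an upper bound on its transcript.

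**Figure D2:**
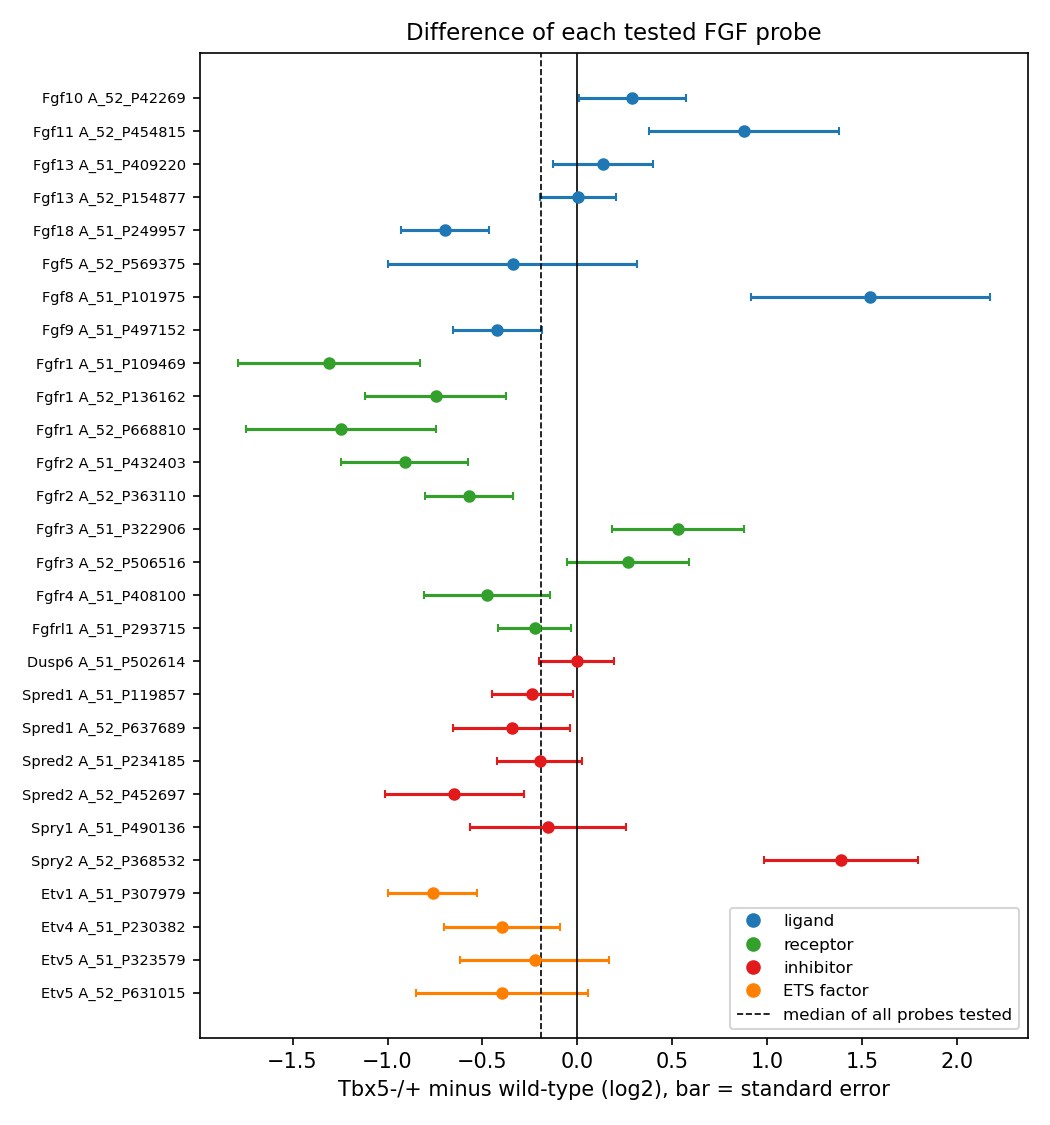
Difference of each of the 28 tested FGF probes, Tbx5-/+ minus wild-type in log2 (horizontal axis), without a block; bars are the limma standard error and colours give the role. The dashed line is the median of all probes tested, -0.19. Fgf8 and Spry2 lie farthest to the right, and 3 Fgfr1 and 2 Fgfr2 probes lie on the left.

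The direction of the difference varied between receptor genes, and on every tested receptor probe the groups overlapped. Fgfr1 and Fgfr2, the broadly expressed receptors of the early embryo, were lower on every tested probe. Fgfr3 was higher on both of its tested probes. Of the 9 receptor probes 7 lay below the median of all probes, and their own median was -0.38 relative to it. With the 3' to 5' gap as a covariate 4 lay below and 5 above, and their median was 0.005 relative to all probes.

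Fgfr1 A_52_P668810 read 10.54, 9.84, 7.95 and 9.25 in Tbx5-/+ 1, 5, 6 and 7 and 10.92, 10.87, 9.86 and 10.91 in wild-type. The overlapping A_51_P109469, spotted 10 times, read 10.11, 9.51, 7.55 and 8.85 against 10.53, 10.40, 9.77 and 10.56. The lowest array was number 6 in both genotypes, and each Tbx5-/+ array lay below its wild-type partner. The differences of -1.25 ± 0.50 and -1.31 ± 0.48 did not pass without the block (limma adjusted p = 0.208 and 0.195) and passed with it (limma adjusted p = 0.0368 and 0.0399). Another Fgfr1 probe, tested through wild-type alone, gave -0.75 ± 0.37 and did not pass with the block (limma adjusted p = 0.0521).

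Fgfr1 was lowest on the arrays with the widest 3' to 5' gaps, and in these arrays gap and genotype cannot be told apart. Its lowest 3 readings on A_52_P668810 were from Tbx5-/+ 5, 6 and 7, the arrays of the 3 widest gaps. With the gap as a covariate the differences of the overlapping probes were -0.05 and -0.18 (limma adjusted p = 0.979 and 0.901). The 5'-most Fgfr1 probe, A_52_P552062, passed the background mark on 3 wild-type arrays and 0 Tbx5-/+ arrays. The endothelial marker list was lower in Tbx5-/+ as well (10.1 to 10.8 against 10.9 to 11.2), and its part in the Fgfr1 difference was not tested. Leaving out Tbx5-/+ 1, the array with a narrow gap, the unpaired fit called both overlapping probes lower, at -1.63 and -1.68 (limma adjusted p = 0.0415 and 0.0343). Leaving out Tbx5-/+ 6 they were -0.76 and -0.82 and did not pass (limma adjusted p = 0.399 and 0.322).

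Fgfr2 A_51_P432403 read 7.90, 7.93, 6.79 and 7.59 in Tbx5-/+ and 9.16, 8.31, 7.87 and 8.51 in wild-type. Only the overlap of Tbx5-/+ 1 and 5 with wild-type 6 kept the groups from separating. The difference of -0.91 ± 0.33 passed with the block (limma adjusted p = 0.0374) and not without it (limma adjusted p = 0.194), and it was -0.34 with the gap as a covariate (limma adjusted p = 0.756). The brighter Fgfr2 probe, A_52_P363110, gave a smaller difference of -0.57 ± 0.23 that did not pass with the block (limma adjusted p = 0.0781).

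The 2 tested Fgfr3 probes differed by 0.53 ± 0.35 and 0.27 ± 0.32, and both leaned on Tbx5-/+ 6, at 11.78 and 11.15 where the other 7 arrays ran from 9.72 to 10.83 and from 9.55 to 10.71. The tested Fgfr4 probe differed by -0.48 ± 0.33, with wild-type 1 highest at 10.43. Fgfrl1, a receptor relative without a kinase domain, differed by -0.22 ± 0.19. None of these passed with or without the block.

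**Figure D3:**
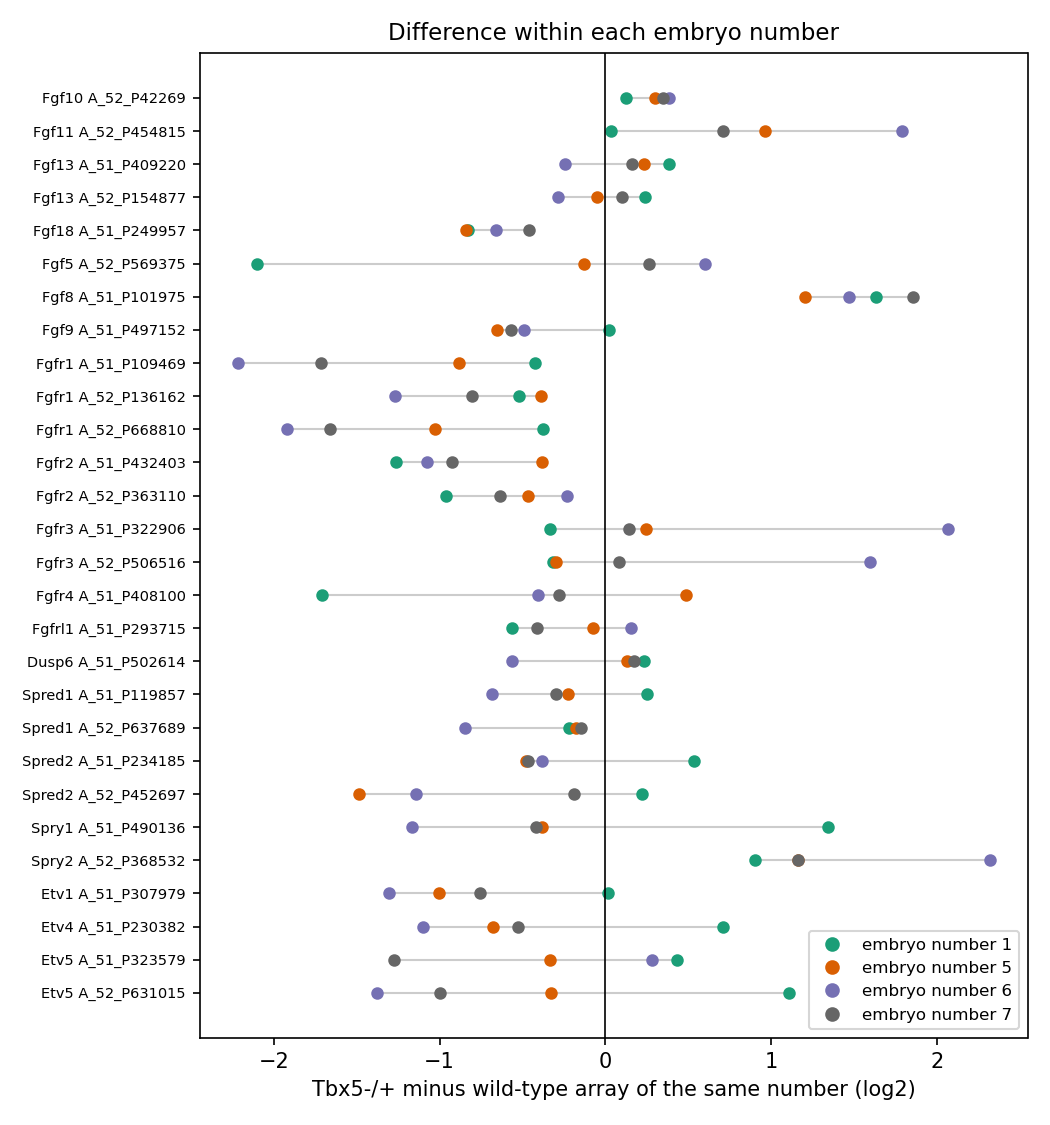
Tbx5-/+ minus wild-type array of the same embryo number (horizontal axis, log2) for the 28 tested FGF probes. Each point is 1 embryo number and grey lines span the 4 values. Fgf8 and Fgf18 have 4 points close together on 1 side of 0, whereas Spry1, Etv4 and one Etv5 probe have number 1 to the right of 0 and the other 3 to the left.

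Over the 28 probes, 4 were higher within all 4 numbers (Fgf8, Fgf10, Fgf11 and Spry2), where 3.81% of all probes were. Lower within all 4 numbers were 7, from Fgfr1, Fgfr2, Fgf18 and Spred1, beside 36.3% of all probes.

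Among the inhibitors, Spry2 was the one that separated. Spry2 encodes a Sprouty protein that blocks signalling between the receptor and ERK. Its probe A_52_P368532 read 12.00, 12.81, 14.13 and 12.55 in Tbx5-/+ 1, 5, 6 and 7 and 11.09, 11.65, 11.81 and 11.39 in wild-type. Every Tbx5-/+ array lay above every wild-type array, as for 1 of 28 member probes and 0.744% of all probes. In the other direction the count was also 1 of 28, Fgf18, beside 8.99% of all probes.

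The Spry2 difference of 1.39 ± 0.41, a 2.62-fold higher level, did not pass without the block (limma adjusted p = 0.140; exact permutation p = 0.0286) and passed with it (limma adjusted p = 0.0335). It was 1.58 relative to the median of all probes, 1.03 within the array label of numbers 1 and 5 and 1.74 within that of numbers 6 and 7. Without Tbx5-/+ 6 it was 0.97, and without Tbx5-/+ 1 it was 1.68 and passed (limma adjusted p = 0.0242). Its 3 highest readings were from Tbx5-/+ 5, 6 and 7, the arrays of the 3 widest gaps, and its lowest was from wild-type 1, the array of the narrowest gap. With the gap as a covariate the difference was 0.51 (limma adjusted p = 0.606).

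The second Spry2 probe, A_51_P445153, lies 516 bases farther from the 3' end. It passed the background mark on 1 Tbx5-/+ and 3 wild-type arrays and was not tested. It read 7.56, 5.88, 5.82 and 5.73 in Tbx5-/+ and 6.76, 6.22, 6.40 and 6.41 in wild-type, so that Tbx5-/+ 5, 6 and 7 lay below all wild-type arrays, opposite to the 3' probe.

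**Figure D4:**
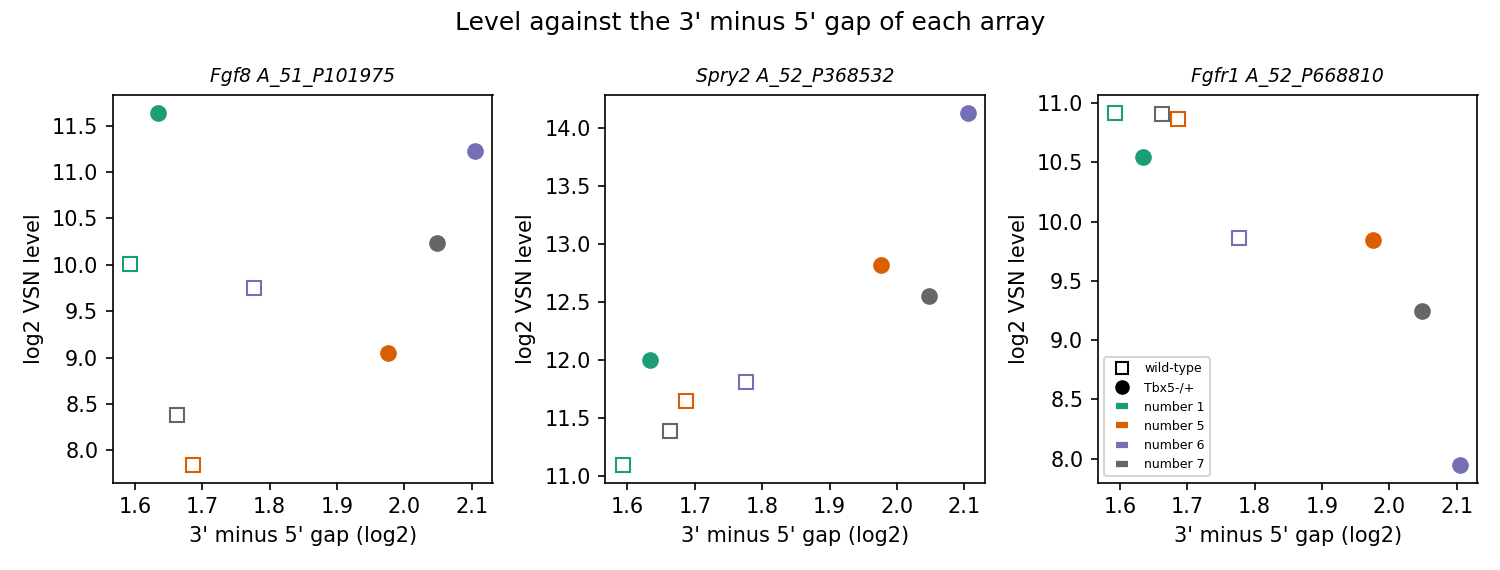
Log2 VSN level of a probe of Fgf8, Spry2 and Fgfr1 (vertical axes) against the 3' to 5' gap of each array (horizontal axis, log2). Filled circles are Tbx5-/+ and open squares wild-type, coloured by embryo number. Spry2 is highest and Fgfr1 lowest on Tbx5-/+ 6, the array with the widest gap of 2.11, while Fgf8 is highest on Tbx5-/+ 1, whose gap is 1.63.

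The other inhibitors showed no call. Dusp6, the phosphatase that inactivates ERK, read 15.11, 14.92, 14.41 and 14.93 in Tbx5-/+ and 14.87, 14.79, 14.97 and 14.76 in wild-type, a difference of 0.00 ± 0.20 (limma adjusted p = 0.991) or 0.19 relative to all probes. Spry1 ranged from 9.32 in Tbx5-/+ 6 to 11.58 in Tbx5-/+ 1, with wild-type between 10.24 and 10.89 and a difference of -0.16 ± 0.41. Its sign turned under centring, percentile scaling and quantile normalization.

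Spred1 and Spred2, membrane-bound inhibitors of Ras signalling, had 2 tested probes each. Spred1 differed by -0.24 ± 0.21 and -0.35 ± 0.31, and Spred2 by -0.20 ± 0.22 and -0.65 ± 0.37. For each gene the larger difference came from a probe tested through wild-type alone. None passed with or without the block. Spred3, Spry3 and Spry4 had no tested probe, and the 2 Spry4 probes were well above background on no array.

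The ETS factors lay below the median of all probes on all 4 tested probes in the comparison without a covariate. The same held after centring, percentile scaling or quantile normalization, and on the VSN scale their relative median was -0.21. Of the 4, the 2 Etv5 probes were tested through wild-type alone. Under the study's own probe filter 1 lay below and 3 above, with a relative median of 0.03. Without Tbx5-/+ 7, 2 lay below and 2 above. Over single arrays left out the relative median ran from -0.56 without Tbx5-/+ 1 to -0.05 without Tbx5-/+ 6. Etv1 came nearest to separation. It read 10.49, 10.23, 9.76 and 10.25 in Tbx5-/+ and 10.47, 11.23, 11.06 and 11.01 in wild-type, with number 1 nearly the same in both genotypes. Its difference of -0.76 ± 0.23 did not pass without the block (limma adjusted p = 0.155) or with it (limma adjusted p = 0.0713).

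Etv4 was higher in Tbx5-/+ within number 1 and lower within the other numbers. It read 9.77 in Tbx5-/+ 1 and 8.61 to 9.49 in Tbx5-/+ 5, 6 and 7, and 9.06 in wild-type 1 and 9.70 to 10.16 in the other wild-type arrays. Within numbers it differed by 0.71 for number 1 and by -0.68, -1.10 and -0.53 for numbers 5, 6 and 7, with a mean of -0.40 ± 0.31 (limma adjusted p = 0.430). It was -0.08 after centring, -0.12 after percentile scaling, -0.07 after quantile normalization, -0.04 with the gap as a covariate, -0.18 without Tbx5-/+ 6 and -0.23 without wild-type 5.

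The 2 Etv5 probes went the same way within numbers 1, 5 and 7 and opposite ways within number 6, where the brighter one differed by -1.38. The brighter was well above background on 3 Tbx5-/+ arrays and the dimmer on 2. The brighter Etv5 probe, A_52_P631015, read 9.48, 8.03, 7.01 and 7.39 in Tbx5-/+ against 8.36 to 8.39 in wild-type, a difference of -0.40 ± 0.45. Tbx5-/+ 1 lay above and the other Tbx5-/+ arrays below all wild-type arrays. Without Tbx5-/+ 1 the difference was -0.90 and passed (limma adjusted p = 0.0373), and without Tbx5-/+ 6 or 7 it was -0.08 or -0.20. The dimmer probe, A_51_P323579, differed by 0.43, -0.33, 0.28 and -1.28 within numbers 1, 5, 6 and 7, with a mean of -0.22 ± 0.39. With the 3' to 5' gap as a covariate 3 of the 4 ETS factor probes lay above the median of all probes, and Etv5 A_52_P631015 stood at 0.77.

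Genes that carry or modulate the FGF signal outside the members were taken from 4 lists, with 66 genes tested. None was called without the block (0 of 66 by limma, beside 0% of all probes tested). At an unadjusted p under 0.05 there were 21 lower and 0 higher, a gene being counted when any of its probes passed. That was 24.8% and 0% of their probes, beside 18.5% lower and 3.37% higher of all probes. With the block 12 genes were called lower and 0 higher, by 13.3% and 0% of their probes, beside 10.7% and 0.379% of all probes. Among coreceptors and extracellular modulators it was 1 of 6, Flrt2 (-1.89 ± 0.34), a transmembrane protein that binds FGF receptors. Among heparan sulfate genes it was 2 of 19, the synthesis enzymes Ndst1 (-2.27 ± 0.45) and Ext1 (-0.83 ± 0.37). The Ndst1 probes disagreed, since a brighter one that read 14.66 to 15.76 over the 8 arrays differed by 0.11 ± 0.27 and was not called.

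In the Ras to ERK cascade 6 of 25 were called, among them the phospholipase Plcg1, the adaptor Crkl and the kinase Rps6ka1 (1 of its 2 probes). The Plcg1 probes disagreed, with the called one at -1.62 ± 0.53 and the other at 0.67 ± 0.32, which was not called. Among other phosphatases and ERK response genes it was 3 of 16, Dusp7, Dusp9 and Ets1, with 1 of 2 Dusp9 probes and 1 of 4 Ets1 probes called. Within the Tbx5-/+ group, every probe of the 4 lists called with the block was lowest on Tbx5-/+ 6, the array of the widest 3' to 5' gap. The part of the gap in these calls was not tested. The 4 lists had medians of -0.02, -0.07, -0.16 and -0.17 relative to all probes.

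Promoters were looked up in RefSeq (GRCm38.p6, 250 bases before to 50 after the start) for the 2 members whose groups did not overlap, and 27 of the 37 member genes had an entry. The sequences below are the 250 bases upstream of the start, with the 50 bases nearest to it in capitals.
Spry2, chr14:105896820-105897069, minus strand: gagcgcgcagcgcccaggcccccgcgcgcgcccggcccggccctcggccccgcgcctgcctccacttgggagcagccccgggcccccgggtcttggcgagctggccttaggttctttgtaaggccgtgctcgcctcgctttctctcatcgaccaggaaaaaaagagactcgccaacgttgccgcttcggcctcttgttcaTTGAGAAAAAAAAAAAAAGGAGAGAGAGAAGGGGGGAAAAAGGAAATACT
Fgf18, chr11:33147401-33147650, minus strand: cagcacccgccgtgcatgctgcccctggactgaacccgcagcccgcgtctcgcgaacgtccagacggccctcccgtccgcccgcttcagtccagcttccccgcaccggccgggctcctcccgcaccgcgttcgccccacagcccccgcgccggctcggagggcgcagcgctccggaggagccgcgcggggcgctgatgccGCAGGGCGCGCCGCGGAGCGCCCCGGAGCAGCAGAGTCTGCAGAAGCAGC
Neither window holds the ETS core CCGGAAG or the T-box core AGGTGTG on either strand. Over the member genes' 36 promoter entries the ETS core was found in 1, that of Fgfrl1, and the T-box core in 0, beside 8.86% and 5.84% of all 32851 entries. The end of the ETS core can overlap the start of the T-box core, and a match or its absence describes only these letters in this window.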

How the data were processed

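Members and gene lists were chosen with earlier results of these data known. Per the labels, the 8 samples are single-colour Cy3 arrays. Per the file headers, the authors used Agilent Feature Extraction 10.5.1.1 and deposited linear intensity values of each spot with its local background. They also deposited a table of log2 values after background correction and VSN; the other deposited columns are quality marks, given as a score of 0 or 1. Coordinates are mm9.

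Here the median background was subtracted, 1115 outlier spots were left out, repeated spots were averaged, and VSN was programmed in R 4.3.3 (90% of probes kept, 7 iterations; r with the deposited values at least 0.9999 per array). Probes well above background on all 4 arrays of a group were compared with limma 3.58.1 (lmFit, eBayes, two-sided, Benjamini-Hochberg over all 20031 probes). A repeated probe counted as above background when at least 50% of its spots were. The number of arrays limits the precision. The scripts were tested on simulated data.

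Same-numbered samples deviated together, though weakly for number 7, so blocked values are given. The correlation across probes of deviations from group means was 0.44, 0.40, 0.59 and 0.14 for numbers 1, 5, 6 and 7. The wild-type array that correlated best with Tbx5-/+ 7 had another number. Named probes are those called, those whose groups did not overlap, the brightest tested probe of 10 core genes, and the 3 of widest spread; Spry4 had none tested. Other members appear with their values to complete each role. Alternatives changed scaling, filter, test, block, weights, covariate and arrays. Some probes and genes of the lists are not reported here by name or sequence.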

Additional observations from a re-analysis of the deposited data

Results flagged for a closer look

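In 6 of 56 groups of 4 arrays, 1 array stood apart from the other 3 by Dixon's criterion, where chance gives about 1 in 20. Fgfr3 A_51_P322906 read 11.78 in Tbx5-/+ 6 and 10.42 to 10.57 in the other Tbx5-/+ arrays (gap over range 0.890). Fgf10 was high in number 1 of both genotypes, at 8.74 against 7.95 to 8.08 in Tbx5-/+ (0.839) and 8.62 against 7.60 to 7.78 in wild-type (0.8293). Fgf13 A_51_P409220 was high in Tbx5-/+ 1, at 7.39 against 6.48 to 6.60 (0.869). Spred1 A_52_P637689 was high in wild-type 1, at 7.83 against 7.0 to 7.14 (0.834). Fgfr1 A_52_P668810 was low in wild-type 6, at 9.86 against 10.87 to 10.92 (0.949). Of the 6, 4 fell on number 1.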

How the results depend on the processing

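The unpaired fit called 0 FGF probes, and 24 of 29 other settings did too. It was 8 by SAM, 15 with array weights (49.9% of all probes called), 6 with the replicate block, and 0 to 6 over single arrays left out, with 6 without Tbx5-/+ replicate 1 (19.1% of all probes). Chosen after seeing the data, the replicate block without both arrays of number 1 called 14 (37.5% of all probes), and 0 without number 5, 6 or 7. Other pathway genes called were 41 with array weights, 2 with the study's own probe filter, 12 with the replicate block, 26 with it and without number 1, and 0 to 16 over single arrays left out, 16 being without Tbx5-/+ replicate 1. The replicate block changed no call other than those given.

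Probes without overlap numbered 1 in place of 2 under centring, 75th percentile scaling and quantile normalization, and 2 to 8 over single arrays left out: 8 without Tbx5-/+ replicate 1, 7 without wild-type replicate 1 and 8 without wild-type replicate 6. Any probe separates more easily with an array left out, and the share over all probes is not given for these settings. The higher counts thus cannot be read as particular to the FGF probes. The members' median relative to all probes was -0.10 and became 0.14 with the 3' to 5' gap as a covariate. Tbx5 A_52_P523712 passed with array weights (-2.52), the study's filter (-2.12), the replicate block (-2.12), without Tbx5-/+ replicate 1 (-2.08) and without wild-type replicate 1 (-2.04). It did not pass with any other single array left out, and all 8 such values ran from -2.39 to -1.95. Its dim probe turned to 0.053 with weights and 0.17 with centring, and ran from -0.34 to 0.16 over single arrays left out.

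Fgf8, Fgf10, Fgf18, Spry2, Etv4, Fgfr1 A_52_P668810 and Fgfr2 A_52_P363110 kept their sign under every alternative run for them, though not their size: Fgf18 was -0.38 with centring and Fgfr2 A_52_P363110 -0.21 with percentile scaling. With array weights, under which 49.9% of all probes were called, Etv4 (-0.56) and Etv5 A_52_P631015 (-0.81) passed. With the gap covariate Dusp6 was 0.22, Spry1 0.77, Etv5 A_52_P631015 0.77 and Fgf5 -2.14. With percentile scaling Dusp6 was 0.37 and Spry1 0.19, with centring 0.32 and 0.16, and Spry1 was 0.14 with quantile normalization. With array weights Dusp6 was 0.11 and Fgf5 0.16. Over single arrays left out Dusp6 ran from -0.093 to 0.14, Spry1 from -0.55 to 0.20 and Fgf5 from -0.67 to 0.44. The causes were not tested. Dim probes limit Spry4, Fgf3, Fgf15 and the second probes of Fgf8 and Spry2.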
